A study of Mus musculus with 4 samples.

Results

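DNA replication and S-phase genes were followed in the mesenchymal stem cell line C3H10T1/2, of mouse origin, given bone morphogenetic protein 3 (BMP3). The set was a list of 45 genes that make, load or serve the replication machinery. Among the probe sets annotated to a gene's symbol alone, the brightest by its 4-array mean stood for the gene. Of the 45 genes, 44 had such a probe set, out of 18193 genes measured in all, and the expression of Chaf1a was not analysed here. The control group was 2 arrays of untreated cells of this line. The BMP3 group was 2 arrays of cells given recombinant human BMP3 at 100 ng/ml for 6 hours. The labels name the arrays biological replicates without stating whether a replicate number marks a shared day or culture, so the p-values measure only the spread between these samples, which may be partly technical. All 4 samples come from a single established line kept in standard culture, which limits them as a model of stem cells in tissue.

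Replication starts at origins that are licensed in G1, when the origin recognition complex, Cdc6 and Cdt1 load the ring-shaped MCM2-7 helicase. Cyclin E with Cdk2, and then Cdc45 and the GINS complex, turn the loaded helicase into a moving fork, where primase, polymerases, the PCNA clamp and its loader copy the DNA. Many of these genes are transcribed in late G1 and S phase under E2F transcription factors, so their transcripts are widely read as signs of cells that prepare for or pass through S phase.

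The members showed no common large difference after BMP3. Gmnn, Mcm2, Mcm5, Pola2 and Rfc5 had higher values in BMP3 arrays, and Rfc3 and Rfc4 lower ones, at an unadjusted p under 0.05. None of the 44 passed limma's threshold after adjustment over all probe sets (0 members, smallest adjusted p = 0.213). The background was the same, since 0.0% of the 45037 probe sets passed, while 3779 had an unadjusted p under 0.05. The differences of the members ran from -0.73 (Rfc3) to 0.61 (Mcm5) on the log2 scale, BMP3 minus control, with a median of 0.10 against -0.01 over all genes.

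Promoter sequences are shown first, because E2F sites are a known shared feature of this gene set. The RefSeq table (build GRCm38.p6) held windows for 37 of the 45 genes, 44 windows in all, each from 250 bases before to 50 after an annotated start. Gmnn, Mcm4, Ccne2, Gins1, Gins2, Prim2, Pole and Rfc2 were not searched. Below are the 200 bases just before the start, 5′ to 3′ on the strand of the gene, for the helicase subunit genes Mcm5 and Mcm2, which had higher values in BMP3 arrays, and for 3 genes of the clamp loader, of which Rfc5 had higher and Rfc3 and Rfc4 lower values. All 5 had an unadjusted p under 0.05. Pola2 also had such a p and is not printed, and its stretch held 0 E2F sites and 1 GC box. Capitals mark E2F sites, CCAAT boxes, CHR elements (the letters TTTGAA) and GC boxes (the letters GGGCGG), searched on both strands. An E2F site was counted where the window held TTCCCGC or the variant TTCGCGC, and likewise for TTGCCGC and the variant TTGGCGC. The Mcm5 sequence lies at chr8:75109309-75109508 on the plus strand, Mcm2 at chr6:88898781-88898980, Rfc5 at chr5:117389024-117389223, Rfc3 at chr5:151651209-151651408 and Rfc4 at chr16:23127731-23127930, all but Mcm5 on the minus strand.
Mcm5: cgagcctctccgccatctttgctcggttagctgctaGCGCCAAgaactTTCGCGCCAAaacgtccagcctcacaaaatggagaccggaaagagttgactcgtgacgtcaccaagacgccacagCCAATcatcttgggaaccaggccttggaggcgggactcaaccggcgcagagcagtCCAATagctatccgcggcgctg
Mcm2: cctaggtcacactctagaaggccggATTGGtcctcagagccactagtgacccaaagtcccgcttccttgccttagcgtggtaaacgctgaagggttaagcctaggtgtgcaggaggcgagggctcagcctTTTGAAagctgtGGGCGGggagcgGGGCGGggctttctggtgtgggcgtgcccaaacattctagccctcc
Rfc5: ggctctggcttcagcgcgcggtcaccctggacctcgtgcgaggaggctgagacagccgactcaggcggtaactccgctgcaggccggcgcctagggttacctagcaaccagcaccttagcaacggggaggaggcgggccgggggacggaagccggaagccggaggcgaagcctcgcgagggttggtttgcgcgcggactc
Rfc3: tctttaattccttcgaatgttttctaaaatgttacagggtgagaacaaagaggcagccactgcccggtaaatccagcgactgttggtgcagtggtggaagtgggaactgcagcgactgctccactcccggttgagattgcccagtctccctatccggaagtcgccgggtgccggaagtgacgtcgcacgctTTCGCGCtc
Rfc4: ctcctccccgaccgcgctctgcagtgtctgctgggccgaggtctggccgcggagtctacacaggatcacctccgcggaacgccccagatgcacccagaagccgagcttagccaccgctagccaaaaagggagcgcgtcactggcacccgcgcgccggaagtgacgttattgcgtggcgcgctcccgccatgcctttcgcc

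Mcm5 held 3 E2F matches in this stretch, 2 of which overlap each other, and 2 CCAAT boxes. Mcm2 held none of the E2F words but 1 CCAAT box, 1 CHR element and 2 GC boxes. Rfc3 held 1 E2F match just before its start, while Rfc4 and Rfc5 held no match to any of the 4 motifs here. The window of Rfc4 had an E2F match 11 bases after the start. Over all member windows, 28 of 44 held an E2F site (63.6%), against 9.57% of the 32851 windows in the table. CCAAT boxes were found in 56.8% of member windows and 37.4% of all windows, GC boxes in 68.2% and 35.7%, and CHR elements, known from genes of mitosis, in 9.09% and 17.9%. A match is a run of letters and not evidence of binding. The difference between members with and without an E2F site was not tested. The 24 measured members with a site had a median log2 difference of 0.11 (17 higher, 7 lower) and the 12 with a window but no site had 0.10 (8 higher, 4 lower). Both BMP3 arrays lay above both control arrays for 8 and below for 5 of the 24, and above for 6 and below for 1 of the 12. At an unadjusted p under 0.05 in limma, 1 of the 24 was higher and 2 lower, and 3 of the 12 were higher and 0 lower. Over all genes, both BMP3 arrays lay above both control arrays for 16.7% and below for 20.6%. At this p, 5.28% of all genes were higher and 4.52% lower.

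**Figure D1:**
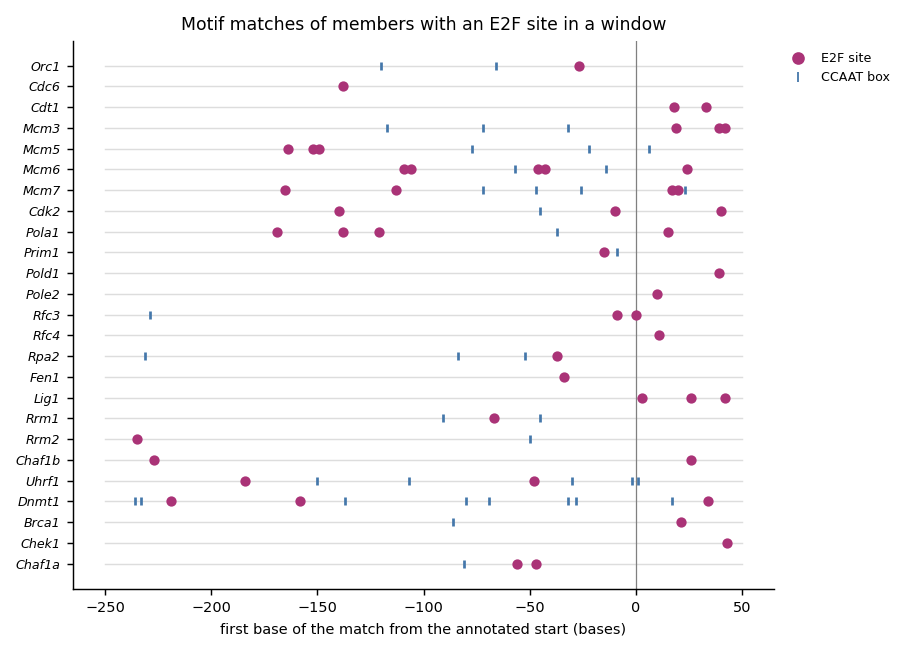
Positions of E2F sites (circles) and CCAAT boxes (ticks) for the 25 members with an E2F site in a RefSeq window, in bases from the annotated start (x axis), which is at 0; the 5 members with several windows have these overlaid. Matches lie on both sides of the start, as in Mcm5 (upstream) and Cdt1 (downstream).

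As facts of the series, the table's values were taken to be log2 intensities, with 45037 probe sets tested. Array medians ran from 3.31 to 3.40, and a log2 value of 6, used here to set well measured genes apart from dim ones, was reached by 37.7% to 38.6% of probe sets. Of the mesenchymal markers 11 of 12 averaged that level, and 0 of 5 blood and 0 of 5 endothelial markers reached it on any array, while 1 of 5 epithelial markers, Epcam, averaged it and Krt5 reached it on 2 arrays. The control arrays read 11.41 and 10.50 for 18S ribosomal RNA and the BMP3 arrays 8.99 and 9.90. The means of the 4 poly-A spike-ins were also lower in BMP3 arrays, from 10.12 to 8.99 for Dap, 7.55 to 6.54 for Phe, 6.97 to 6.24 for Lys and 5.91 to 5.43 for Thr, while the hybridization spike-ins averaged 11.59 and 11.55. The control arrays differed among themselves in these poly-A spike-ins. In the same order, control replicate 1 read 10.39, 8.03, 7.45 and 6.22 and control replicate 2 read 9.86, 7.07, 6.48 and 5.59. The part of these control differences in the members' values was not tested. In bulk RNA, a changed share of cells in S phase and a changed amount of transcript per cell cannot be told apart.

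Counted by direction, 32 of the 44 members had a higher mean in BMP3 arrays (72.7%) and 12 a lower one. Cdc6, with a difference that rounded to 0.00, was counted among the 32. Over all genes 42.4% had a higher mean, and over genes averaging a log2 value of 6 or more 53.3%. Both BMP3 arrays lay above both control arrays for 17 members (38.6%), where the share was 16.7% of all genes and 26.1% of those averaging 6 or more. Both BMP3 arrays lay below both control arrays for 7 members (15.9%), near the 20.6% of all genes and 21.7% of the brighter ones. At an unadjusted p under 0.05 there were 5 members higher, against 5.28% of all genes and 9.87% of the brighter ones, and 2 lower, against 4.52% and 8.33%. As shares of the 44 these were 11.4% and 4.55%, so the lower side stood at the background. All 7 of these averaged 6 or above, and among the 31 members at that level their shares were 16.1% and 6.45%. Without BMP3 replicate 2 the count of higher members at an unadjusted p under 0.05 was 13, and without control replicate 2 it was 2. Leaving out BMP3 replicate 1 gave a lower count of 4, leaving out control replicate 1 gave 0, and leaving out either of the other two arrays gave 1. After quantile normalization the counts were 9 higher and 1 lower, after median centring 7 and 0, and after cyclic loess 6 and 1.

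The upward side was uneven between the BMP3 arrays. BMP3 replicate 1 was the highest of the 4 arrays for 24 of the 44 members, BMP3 replicate 2 for 10, control replicate 1 for 9 and control replicate 2 for 1. The same count over all genes was not made, so it is open whether this is particular to the members. As a list level, the median over members of the value minus the gene's own mean was -0.01 and -0.04 in control replicates 1 and 2 and 0.09 and -0.02 in BMP3 replicates 1 and 2. For the members, the level of BMP3 replicate 2 thus lay between those of the control arrays. Within each replicate number the BMP3 level was the higher one, and the labels do not say whether such a number marks a pair. BMP3 replicate 1 also stood apart in the 3′ minus 5′ difference of control transcripts, a sign of RNA quality or labelling. For Gapdh this was -0.09 there, against -0.44 in BMP3 replicate 2 and -0.55 and -0.56 in the control arrays. For Actb it was 0.73, against 0.38 and then 0.48 and 0.39. The part of this in the members' values was not tested. Without BMP3 replicate 1 the median difference of the members was 0.04 with 25 of 44 higher, and without BMP3 replicate 2 it was 0.16 with 29 higher.

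The average reached 6 on the log2 scale for 31 of the 44 members, while 13 stayed under 6 on all 4 arrays. Mcm2 was the single member that crossed this level between arrays, being at 6 or more on 3 of them. The dim members were Orc1, Cdc6, Ccne1, Ccne2, Cdc45, Gins1, Mcm10, Pole, Tyms, Tk1, Chaf1b, Brca1 and Chek1. They include genes whose products define S-phase entry, and their differences ran from -0.12 to 0.32. A probe set near background can understate a difference. For the 31 brighter members the 95% confidence interval reached a median of 0.47 to either side of the difference on the log2 scale (0.11 to 1.06). The interval held 0 for 24 of them and lay wholly within a log2 difference of 1 in either direction for 22.

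**Figure D2:**
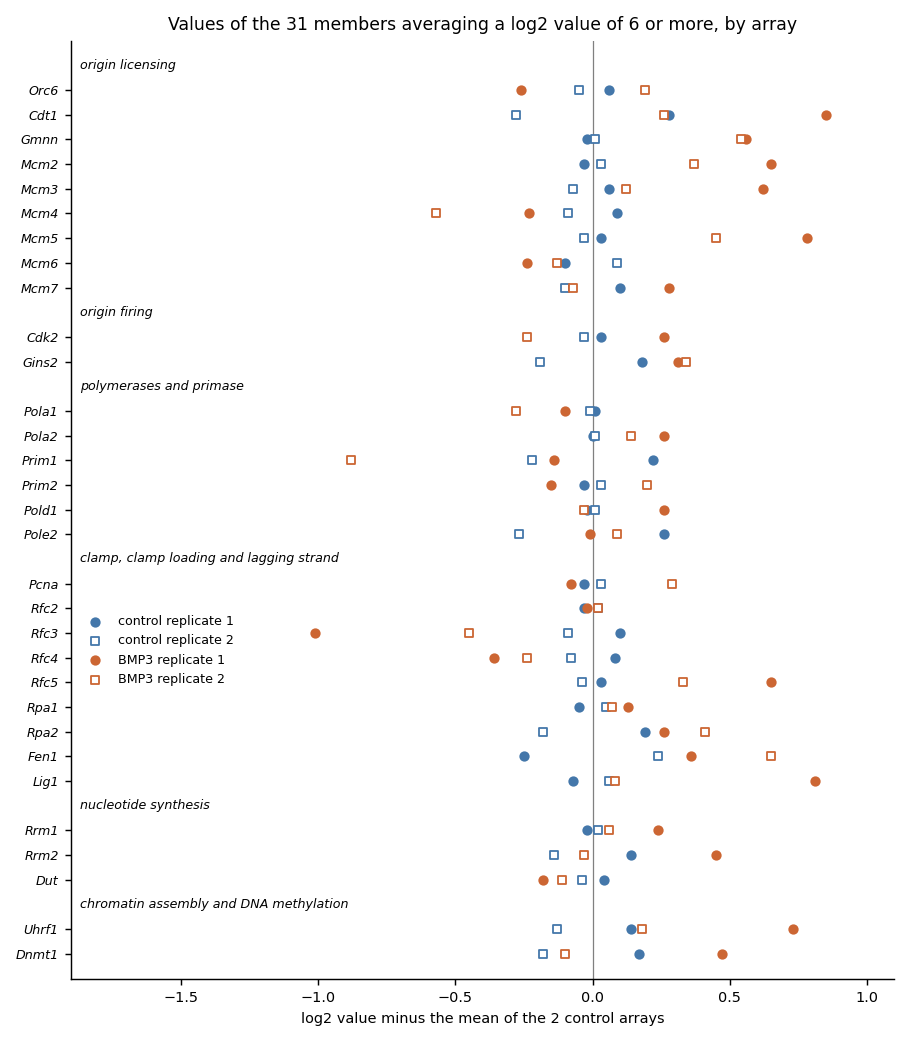
Log2 value of each array minus the mean of the 2 control arrays (x axis) for the 31 members with a mean log2 value of at least 6, ordered by replication step; blue marks are control and orange marks BMP3 arrays, with filled circles for replicate 1 and open squares for replicate 2. Gmnn, Mcm2, Mcm5 and Rfc5 have both BMP3 arrays to the right, Rfc3 and Rfc4 to the left, and for Lig1 and Uhrf1 BMP3 replicate 1 lies apart from the rest.

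Among the genes of origin licensing, 8 of 11 had a higher mean and 3 a lower one, with a median of 0.21 (range -0.40 to 0.61). The 8 include Cdc6, whose difference rounded to 0.00. Gmnn, which encodes geminin, the inhibitor that binds Cdt1 and blocks a second round of licensing, read 7.91 and 7.94 in control arrays, against 8.49 and 8.47 with BMP3. The groups stood apart with little spread inside each. The difference was 0.55 with a standard error of 0.03, a ratio of 1.47 (limma unadjusted p = 0.000396, adjusted p = 0.213), and it was the smallest p of all members. A small p from 2 arrays per group favours genes whose replicates happen to lie close together. Cdt1, the loading factor that geminin holds back, read 8.77 and 8.21 in control arrays, against 9.34 and 8.75 with BMP3. Its groups overlapped, since BMP3 replicate 2 lay below control replicate 1, and its difference of 0.55 had a standard error of 0.32 (limma adjusted p = 0.852). Cdc6, the ATPase that works with Cdt1 in loading, was dim at 3.98 and 4.0 in control replicates 1 and 2 and 4.0 and 3.97 in BMP3 replicates 1 and 2, with overlapping groups and a difference of 0.00. Of the origin recognition complex, Orc1 was dim with a difference of 0.21, and Orc6 had -0.04 with overlapping groups.

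The 6 subunits of the MCM2-7 helicase, which act as 1 ring, did not share a direction at their brightest probe sets, with 4 higher and 2 lower. Mcm5 read 8.90 and 8.84 in control arrays, against 9.65 and 9.32 with BMP3, a difference of 0.61 ± 0.14 (SE; limma adjusted p = 0.441). Mcm2 read 5.94 and 6.00 in control arrays, against 6.62 and 6.34 with BMP3, a difference of 0.51 ± 0.12 (limma adjusted p = 0.457). In both genes the arrays of the groups did not overlap and BMP3 replicate 1 was the higher of its pair. Mcm4 went the other way, at 10.43 and 10.25 in control arrays, against 10.11 and 9.77 with BMP3 (difference -0.40 ± 0.15, limma adjusted p = 0.685). Mcm3 had a difference of 0.37, Mcm7 of 0.11 and Mcm6 of -0.18. At another well measured probe set Mcm6 had 0.30 (limma unadjusted p = 0.0388, adjusted p = 0.545). Mcm4 likewise had 0.08 and Mcm3 0.10, and the other probe sets of Mcm7 ran from -0.07 to 0.06. The split of the ring is thus that of the brightest probe sets. The array level of the ring, as the median over its subunits, was -0.06 and -0.19 for control replicates 1 and 2. For BMP3 replicates 1 and 2 it was 0.31 and -0.05. BMP3 replicate 2 was thus level with control replicate 1 and above control replicate 2. Whether arrays of the same replicate number form a pair is not stated, so the share of each BMP3 array in the difference is not settled.

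The step of origin firing was poorly measured, with 5 of its 7 members dim. Ccne1, which encodes the cyclin that activates Cdk2 at the G1 to S boundary, read 4.85 and 5.22 in control arrays, against 5.22 and 5.50 with BMP3. Its relative Ccne2 read 4.85 and 4.73 in control arrays, against 4.72 and 4.99 with BMP3, with overlapping groups. The differences were 0.32 ± 0.19 for Ccne1, whose groups shared the value 5.22, and 0.07 ± 0.12 for Ccne2. Cdk2, their kinase partner, was well measured and had a difference of 0.01 (95% confidence interval -0.61 to 0.63). Gins2, a subunit of the GINS part of the fork helicase, read 7.62 and 7.25 in control arrays, against 7.75 and 7.78 with BMP3. Both BMP3 arrays were higher, but control replicate 1 was nearer to them than to control replicate 2, and the difference was 0.33 ± 0.15 (limma adjusted p = 0.767). Gins1 read 3.81 and 3.83 against 3.88 and 3.85, and Mcm10, a fork assembly factor, 2.77 and 2.61 against 2.88 and 2.85, all low values, with differences of 0.05 and 0.18. Cdc45 was dim as well, with a difference of -0.01.

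Polymerase and primase genes had a median difference of 0.04, with 5 of 7 higher and 2 lower. Polymerase alpha with primase lays down the short primers from which the other polymerases extend, and its 4 subunit genes differed among themselves. Pola2, the accessory subunit, read 6.80 and 6.81 in control arrays, against 7.06 and 6.94 with BMP3, a difference of 0.20 ± 0.06 (limma adjusted p = 0.551). Pola1, the catalytic subunit, read 7.17 and 7.15 in control arrays, against 7.06 and 6.88 with BMP3, a difference of -0.19 ± 0.08 (limma adjusted p = 0.730). The 2 subunits thus had groups that did not overlap, in opposite directions and by a similar size. Prim1, the catalytic primase subunit, read 10.70 and 10.26 in control arrays, against 10.34 and 9.60 with BMP3, where BMP3 replicate 2 was low and BMP3 replicate 1 lay between the control arrays. Its difference was -0.51 ± 0.34 (limma adjusted p = 0.870). Prim2 had a difference of 0.03. Pold1, the catalytic subunit of polymerase delta, read 8.17 and 8.20 in control arrays, against 8.45 and 8.16 with BMP3. BMP3 replicate 1 alone stood above the others, and the difference was 0.12 ± 0.12. The polymerase epsilon genes Pole and Pole2 had 0.19 and 0.04, the first from a dim probe set.

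All 9 genes of the clamp, the clamp loader and lagging-strand processing were well measured, with 7 higher, 2 lower and a median of 0.11. Pcna, the sliding clamp that tethers polymerases and many other replication proteins, read 12.81 and 12.87 in control arrays, against 12.76 and 13.13 with BMP3. The groups overlapped, and the difference was 0.11 with a 95% confidence interval of -0.36 to 0.57. The clamp loader is a ring of a large subunit and 4 small ones, and the genes of the small subunits went in different directions. Rfc5 read 7.20 and 7.13 in control arrays, against 7.82 and 7.50 with BMP3, a difference of 0.49 ± 0.13 (limma adjusted p = 0.510). Rfc3 read 8.98 and 8.79 in control arrays, against 7.87 and 8.43 with BMP3, a difference of -0.73 ± 0.23 (limma adjusted p = 0.588). Rfc4 read 9.93 and 9.77 in control arrays, against 9.49 and 9.61 with BMP3, a difference of -0.30 ± 0.09 (limma adjusted p = 0.534). In each of these 3 genes the groups did not overlap at the brightest probe set. Over all genes, both BMP3 arrays lay above both control arrays for 16.7% and below for 20.6%. At the other well measured probe set of Rfc3 and of Rfc4 the groups overlapped, with differences of -0.18 and -0.12. Rfc2 had a difference of 0.01 with a 95% confidence interval of -0.13 to 0.14, one of the narrowest among the well measured members.

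Behind the fork, replication protein A coats single-stranded DNA, the flap endonuclease Fen1 trims Okazaki fragments and DNA ligase 1 seals them. Fen1 read 8.18 and 8.67 in control arrays, against 8.79 and 9.08 with BMP3. The BMP3 arrays were higher, but the control arrays were further apart than control replicate 2 was from either BMP3 array, and the difference was 0.51 ± 0.23 (limma adjusted p = 0.764). Lig1 read 7.35 and 7.48 in control arrays, against 8.23 and 7.50 with BMP3, so its difference of 0.45 came from BMP3 replicate 1. Rpa1 had 0.10 and Rpa2 0.33 at their brightest probe sets.

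Genes of nucleotide supply had a median of 0.05, with 3 of 5 higher. Rrm1, the large subunit of ribonucleotide reductase, which makes deoxynucleotides, read 9.43 and 9.47 in control arrays, against 9.69 and 9.51 with BMP3 (difference 0.15 ± 0.08, limma adjusted p = 0.839). Rrm2, the small subunit whose level is known to follow S phase, read 9.94 and 9.66 in control arrays, against 10.25 and 9.77 with BMP3, with overlapping groups and a difference of 0.21 ± 0.22. Dut, which removes dUTP so that uracil is kept out of DNA, read 9.91 and 9.83 in control arrays, against 9.69 and 9.76 with BMP3 (difference -0.15 ± 0.05, limma adjusted p = 0.649). At their brightest probe sets the differences of these 3 genes were small, and those of Rrm1 and Rrm2 changed sign at another well measured probe set (-0.49 and -0.08). Tk1, thymidine kinase, read 5.12 and 5.15 against 5.21 and 5.15, and Tyms, thymidylate synthase, 4.82 and 4.59 against 4.62 and 4.55. Both were dim, with differences of 0.05 and -0.12. A further probe set annotated to Tyms together with a pseudogene of it was left out, so the Tyms values here do not describe that probe set.

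In chromatin assembly and DNA methylation, 2 of the 3 measured genes had higher means. Uhrf1, which brings the maintenance methyltransferase to hemimethylated DNA behind the fork, read 8.54 and 8.27 in control arrays, against 9.13 and 8.58 with BMP3. BMP3 replicate 2 exceeded control replicate 1 by a narrow margin, and the difference was 0.45 ± 0.25 (limma adjusted p = 0.836). Dnmt1, that methyltransferase, read 9.84 and 9.49 in control arrays, against 10.14 and 9.57 with BMP3, with overlapping groups and a difference of 0.19 ± 0.27 (limma adjusted p = 0.933). In both, BMP3 replicate 1 was the highest array and control replicate 2 the lowest. Chaf1b, a subunit of the histone chaperone CAF-1, lay at 2.30, 2.21, 2.21 and 2.17, below the median of every array, with a difference of -0.07. The checkpoint and repair genes were dim too, Brca1 at 4.76 and 4.68 in control arrays, against 5.01 and 4.46 with BMP3, and Chek1, the kinase that restrains stressed forks, at 3.57 and 3.53 against 3.57 and 3.50. The groups of both overlapped, with differences of 0.02 and -0.01.

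**Figure D3:**
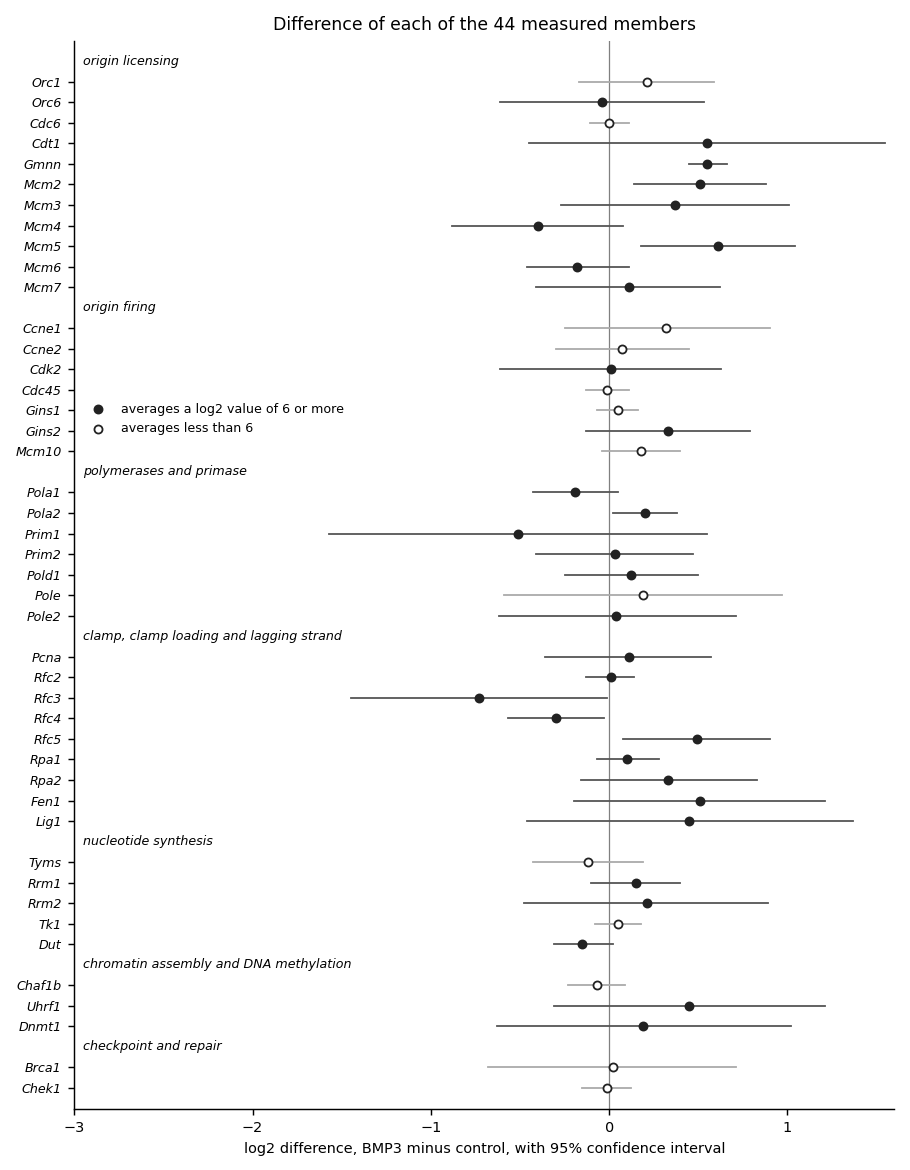
Log2 difference, BMP3 minus control, with the 95% confidence interval of the limma fit (x axis) for each of the 44 measured members, ordered by replication step; filled points have a mean of at least 6 and open points less. The points run from -0.73 for Rfc3 to 0.61 for Mcm5, and most intervals hold 0.

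In 16 members at least 2 probe sets had a mean log2 value of 6 or above, and in 8 of these the probe sets of the gene differed in sign. Rpa2 had the widest gap. Its brightest probe set read 7.98 and 7.61 in control arrays, against 8.05 and 8.20 with BMP3, a difference of 0.33. Its other one read 7.43 and 7.63 in control arrays, against 6.69 and 6.66 with BMP3, a difference of -0.86 ± 0.09 (limma unadjusted p = 0.0018, adjusted p = 0.259). No array of the groups overlapped in either probe set, so the gene had no settled direction. Rrm1 showed the same kind of split, with 0.15 at the brightest probe set and -0.49 at the other. For Mcm4 the probe sets gave -0.40 and 0.08, and for Mcm6 -0.18 and 0.30, so the lower values of these 2 helicase subunits were not seen at their second probe sets. Rrm2 (-0.08 to 0.21), Mcm7 (-0.07 to 0.11), Rpa1 (-0.06 to 0.10) and Rfc2 (-0.09 to 0.01) straddled 0 by little. Prim1 (-0.79 and -0.51), Rfc3 (-0.73 and -0.18), Rfc4 (-0.30 and -0.12), Mcm3 (0.10 and 0.37), Gins2 (0.11 and 0.33), Prim2 (0.03 and 0.13), Pold1 (0.12 and 0.24) and Dnmt1 (0.10 to 0.27) kept 1 sign. Gmnn, Rfc5 and Pcna had a single probe set, and the other probe sets of Mcm2, Mcm5 and Pola2 were dim, so these had no second measurement at this level.

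**Figure D4:**
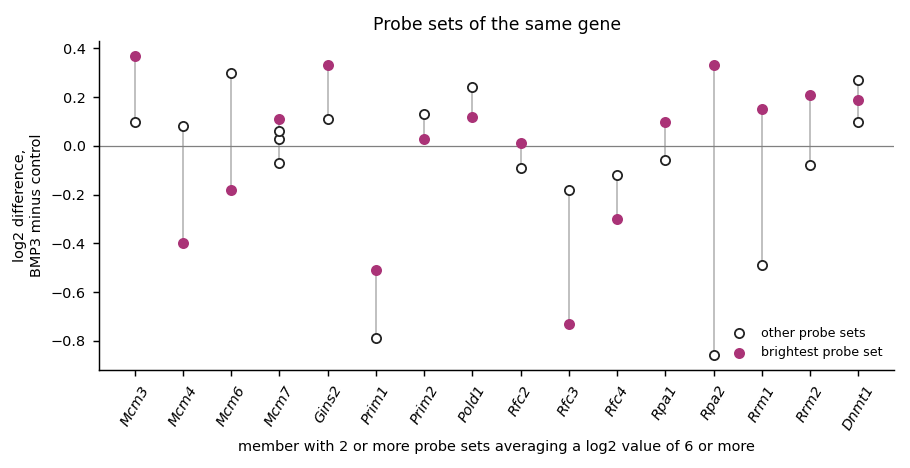
Log2 difference, BMP3 minus control (y axis), of every probe set with a mean log2 value of at least 6, for the 16 members with 2 or more of them (x axis); filled points are the brightest probe set and open points the others. Rpa2, Rrm1, Mcm4 and Mcm6 have points well apart on opposite sides of 0.

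Other genes of the same processes had differences in both directions, with 0 past the adjusted threshold in every list. Of 31 other replication genes 22 had higher and 9 lower means (median 0.03), led by Dbf4, the activating subunit of the kinase that fires origins, at 8.10 and 7.87 in control arrays, against 8.52 and 8.29 with BMP3. Its difference was 0.42 ± 0.13, and Pold3 (0.17 ± 0.07) and the dim Gins3 (0.40 ± 0.18) followed. Leaving out BMP3 replicate 1 turned this list to 13 higher and 18 lower, with a median of -0.02. Of 17 other nucleotide synthesis genes 10 were higher and 7 lower (median 0.21). Cad, which encodes the enzyme of the first steps of pyrimidine synthesis, had 0.63 ± 0.19 and Umps, of its last steps, 0.21 ± 0.04, while Paics of purine synthesis had -0.42 ± 0.09. Other purine genes of the list, named after their values were seen, had both BMP3 arrays above both control arrays, with 0.64 ± 0.30 for Ppat, 0.51 ± 0.18 for Gart and 0.40 ± 0.14 for Atic. In the whole list both BMP3 arrays lay above both control arrays for 6 of the 17 genes and below for 5. These shares were 16.7% and 20.6% over all genes, and 26.1% and 21.7% over genes averaging 6 or more. Leaving out BMP3 replicate 2 took this list's median to -0.03 (7 higher, 10 lower) and leaving out control replicate 1 took it to 0.03. Of 8 other chromatin assembly genes 6 were higher (median 0.07), among them Rbbp4 (0.18), Rbbp7 (0.09) and the dim Asf1b (0.33). Of 18 other S-phase checkpoint and repair genes 7 were higher and 11 lower (median -0.02), which median centring turned to 15 and 3 (median 0.02) and quantile normalization and cyclic loess to 9 and 9. Atr, the kinase that senses stalled forks, read 8.05 and 8.13 in control arrays, against 7.75 and 7.64 with BMP3 (difference -0.40 ± 0.06, limma adjusted p = 0.335), Mre11a had -0.14 ± 0.04 and the dim Rad51ap1 0.81 ± 0.26.

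The genes of the mitosis list, which also holds Ccna2, Cdk1 and Top2a, stood at other values than the replication members on the same arrays. All 29 measured mitosis genes had a higher mean in BMP3 arrays, with a median log2 difference of 0.87 (0.13 to 1.78), and both BMP3 arrays lay above both control arrays for 24 of them. For the replication members the same figures were 32 of 44, a median of 0.10 and 17 of 44. Over all genes 42.4% had a higher mean, and both BMP3 arrays lay above both control arrays for 16.7%. Over genes averaging 6 or more these shares were 53.3% and 26.1%. The mitosis level was -0.40 and -0.50 in control replicates 1 and 2 and 0.76 and 0.16 in BMP3 replicates 1 and 2, so here too BMP3 replicate 1 was the further from control, but BMP3 replicate 2 lay above both control arrays, which it did not for the replication members. The difference was 0.98 ± 0.03 for Cks2, a partner of cyclin-dependent kinases, 1.29 ± 0.12 for Ube2c, which helps mark mitotic proteins for destruction, and the spindle assembly gene Tpx2 had 0.87 ± 0.08. Without BMP3 replicate 1, 27 of the 29 mitosis genes had a higher mean and their median was 0.55, while under the 3 other scalings all 29 stayed higher. The gap between the lists was not tested, both lists rest on the same 4 arrays, and 0 genes of either passed the adjusted threshold. E2F and pocket protein genes were split, with 7 of 13 higher, 6 lower and a median of 0.01, or 6 and 7 with a median of -0.01 without control replicate 1. The repressor genes E2f8 (5.12 and 5.14 in control, 6.55 and 6.47 in BMP3 arrays) and E2f7 (difference 0.99 ± 0.32), both with a mean under 6, had higher values and E2f5 a lower one (-0.43 ± 0.11), none past the adjusted threshold.

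**Figure D5:**
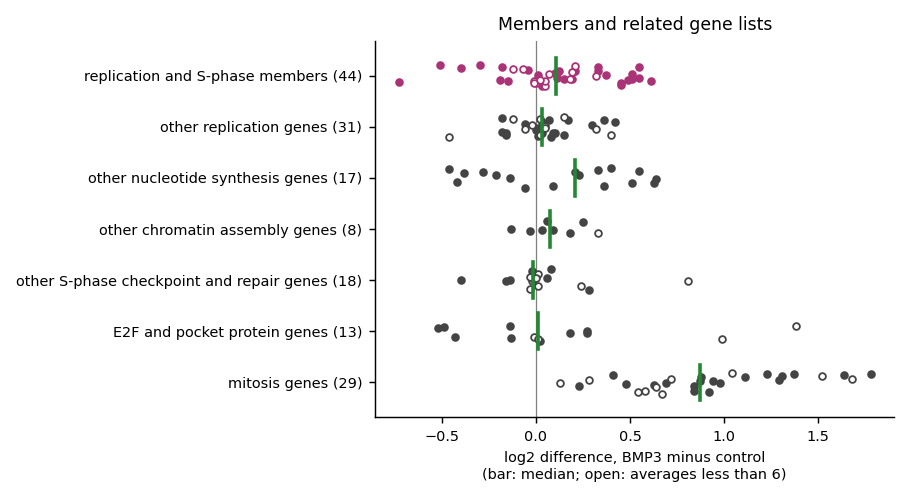
Log2 difference, BMP3 minus control (x axis), of each measured gene in the replication and S-phase list and 6 related lists (y axis, number of genes in brackets); green bars are medians, filled points have a mean of at least 6 and open points less, and vertical scatter within a list has no meaning. The replication members spread around a median of 0.10, whereas all 29 mitosis genes lie to the right of 0.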

How the data were processed

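Per the labels' protocols, biotin-labelled cRNA of 4 samples was prepared with an Affymetrix 3' kit for expression arrays. The authors deposited 1 value per probe set and array, taken here as log2 intensity from its range, since no source states the scale. The submitters' processing notes list Partek. How the authors corrected background, normalized and summarised probes is not given in the sources used here.

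After 64 control probe sets were left out, BMP3 was compared with control in limma 3.58.1 (R 4.3.3; lmFit and eBayes, two-sided, no block), with Benjamini-Hochberg adjustment over 45037 probe sets, a threshold of 0.05 and no filter on dim values. Of these, 34945 carried a single gene symbol in the platform annotation. Entrez identifiers matched RefSeq (GRCm38.p6) for all 44 measured members, and 0 symbols changed. The fit was tested on simulated data. The members, lists, motifs and alternatives were chosen with earlier results of these data known. By a rule, array values were given for the 4 members of smallest p in each step and a fixed set; those of Lig1 and Rpa2 were added after their values were seen, and 3 genes of smallest p were named from each other list. Alternatives were the replicate block, each array left out, other scalings, a dim filter, an offset and the mean of probe sets.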

Additional observations from a re-analysis of the deposited data

How the results depend on the processing

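With 2 arrays per group, precision is limited by their number, and 13 of the 44 members were dim on every array. No setting brought a member or any probe set past the adjusted threshold (0 in each). The count of members at an unadjusted p under 0.05 was 5 higher and 2 lower. With the replicate block it was 8 and 3. The block added Cdt1 (limma unadjusted p = 0.00283, from 0.181), Fen1 (0.00938), Mcm4 (0.0136), Ccne1 (0.0153), Prim1 (0.0189) and Uhrf1 (0.0225), and Pola2 (0.0684) and Rfc4 (0.0601) no longer had a p under 0.05. The deviations of the replicate 1 arrays correlated at 0.596 over 17152 probe sets, but 2 numbers do not settle a pairing and the labels name no shared batch. The higher count was 9 after quantile normalization and ran from 2 to 13 with each array left out. The lower count was 1 after quantile normalization, cyclic loess, the filter on dim probe sets and an offset of 16, 0 after median centring, and 0 to 4 with each array left out. The median difference of 0.10 became 0.16 after quantile normalization and 0.04 when a gene's probe sets were averaged, and ran from 0.04 to 0.16 with each array left out. The number of members with a higher mean, 32, ran from 25 to 31 with each array left out. It was 35 after quantile normalization, 34 after median centring and after cyclic loess, and 28 when a gene's probe sets were averaged. The causes were not tested.

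The sign held in all settings for 23 of the 44 members. With each array left out, 16 members changed sign in at least 1 setting, with these lowest and highest values: Orc6 -0.26 and 0.18, Cdc6 -0.02 and 0.02, Mcm7 -0.07 and 0.29, Ccne2 -0.06 and 0.21, Cdk2 -0.24 and 0.26, Cdc45 -0.04 and 0.01, Prim2 -0.14 and 0.20, Pold1 -0.02 and 0.27, Pole -0.12 and 0.49, Pole2 -0.22 and 0.31, Pcna -0.08 and 0.29, Rfc2 -0.02 and 0.03, Rrm2 -0.03 and 0.45, Dnmt1 -0.09 and 0.48, Brca1 -0.26 and 0.29, and Chek1 -0.05 and 0.02. Quantile normalization turned Cdc45 to 0.04, Tyms to 0.02 and Chek1 to 0.03, median centring Cdc45 to 0.03 and Chek1 to 0.02, and cyclic loess both to 0.02. Averaging a gene's probe sets turned Mcm6 to 0.04, Cdk2 to -0.00, Cdc45 to 0.01, Pole2 to -0.02, Rfc2 to -0.04, Rpa2 to -0.26, Rrm1 to -0.13, Rrm2 to -0.05, Dut to 0.01 and Brca1 to -0.01.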
